A study of Mus musculus with 16 samples.

Results

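Genes of hepatic sterol export and of the sterol sensor LXR were followed through mouse livers that differed in c-Met genotype and in diet. They were the exporters Abcg5, Abcg8, Abca1 and Abcg1 and the ubiquitin ligase Mylip. Members were all probes carrying one of these 5 symbols in the deposited signal table, which gave 6 probes (2 for Mylip) of 25697 probes and 18138 symbols. A probe was called detected on an array at a detection p-value under 0.05, and 3 of the 6 probes, those of Abcg5, Abcg8 and Abcg1, were detected on at least 4 arrays and entered the tests.

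Liver RNA was hybridised to 16 Illumina bead arrays, 4 per group. The groups were conditional c-Met knockout (KO) mice on a high cholesterol diet, wild type (WT) mice on that diet, KO mice on regular chow, and WT mice on regular chow. All 4 groups shared the mixed 129SV/C57BL/6 background, the tissue and a feeding period of 30 days. The high cholesterol diet held 2% cholesterol together with 0.5% sodium cholate, a bile acid salt, so both agents changed at once and their effects cannot be told apart. Hepatocyte growth factor signals through c-Met. The sources used here do not give the Cre driver, the deleted part of the gene or the age of the mice. The labels also do not say that the samples of a group came from separate mice, so the p-values measure only the spread between these samples, which may be technical.

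LXR is a pair of nuclear receptors, LXRα (gene Nr1h3) and LXRβ (Nr1h2), that are activated by oxysterols and bind DNA together with the retinoid receptor RXR. Its targets lower the free sterol of a cell. Abcg5 and Abcg8 are half-transporters that work only as a heterodimer, which in the liver sits in the canalicular membrane and moves sterols into bile. Abca1 loads cholesterol and phospholipid on lipid-poor apolipoprotein A-I, and Abcg1 adds cholesterol to HDL particles, mainly in macrophages. Mylip, also called IDOL, marks lipoprotein receptors for degradation.

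Abcg5 and Abcg8 lie head to head on mouse chromosome 17. Their promoter windows are shown because both genes moved together between the diets and the windows overlap. Each window, from RefSeq on GRCm38.p6, holds 250 bases before and 50 bases after the start site. RefSeq windows were found for 4 of the 5 members. The Abcg5 window is chr17:84682962-84683261 on the minus strand. The Abcg8 window is chr17:84682871-84683170 on the plus strand, and the table holds a further Abcg8 window that starts at 84676052. Capitals mark the 209 bases that the windows share on opposite strands; their start sites lie 110 bases apart.
Abcg5: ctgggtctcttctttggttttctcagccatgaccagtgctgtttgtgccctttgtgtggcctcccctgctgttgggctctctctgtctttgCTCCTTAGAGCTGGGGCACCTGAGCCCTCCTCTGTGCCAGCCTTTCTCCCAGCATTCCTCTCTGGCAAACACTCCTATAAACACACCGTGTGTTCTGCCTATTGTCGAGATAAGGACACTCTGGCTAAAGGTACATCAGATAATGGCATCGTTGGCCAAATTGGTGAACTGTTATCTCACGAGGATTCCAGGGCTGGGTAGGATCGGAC
Abcg8: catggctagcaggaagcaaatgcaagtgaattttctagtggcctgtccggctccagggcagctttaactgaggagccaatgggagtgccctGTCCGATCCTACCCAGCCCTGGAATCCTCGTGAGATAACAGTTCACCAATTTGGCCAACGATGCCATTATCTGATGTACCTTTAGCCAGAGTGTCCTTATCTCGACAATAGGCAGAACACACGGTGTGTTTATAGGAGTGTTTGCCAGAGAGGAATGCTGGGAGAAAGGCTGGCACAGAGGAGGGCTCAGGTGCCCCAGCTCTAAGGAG
GC content over the shared bases was 51.7%. The letters TATAAA, read on the Abcg5 strand, stood once in the shared stretch, at positions -84 to -79 from the Abcg5 start and -31 to -26 from the Abcg8 start. GATAAG, the core letters that GATA factors bind, stood once on the same strand, at -51 to -46 from the Abcg5 start and -64 to -59 from the Abcg8 start. Of 32851 RefSeq windows of the same length, 13.62% held TATAAA and 7.44% held GATAAG on either strand. The nuclear receptor half-site AGGTCA, held by 16.26% of windows, was not among the letters of these windows on either strand. A pair of such half-sites 4 bases apart, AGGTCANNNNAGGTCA, form the element that LXR with RXR is known to bind, called DR4. Up to 3 mismatches to its 12 specified bases were allowed, which 21.88% of windows met. By that measure the Abca1 window (chr4:53159846-53160145, minus strand) held a match with 3 mismatches that ended 52 bases before the start site, at chr4:53159947-53159962 on the plus strand, with the specified positions in capitals.
Abca1 DR4 match: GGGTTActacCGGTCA
These matches describe letters in the reference sequence and were not tested as binding sites.

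Per array, 10028 to 11952 probes were detected and the upper quartile of the signal was 61.4 to 113 intensity units. After background correction and filtering, 9265 genes were tested, and the number of arrays per group limited the precision. The hepatocyte genes Alb, Ttr and Apoa1 were detected on 16 of 16 arrays, and Tat on 9. The enterocyte genes Fabp2 and Vil1 were detected on 0 arrays, and Si on 1. The enterocyte gene Apoa4, which liver also expresses, was detected on 16 of 16. Met was detected on 1 of 4 KO and 1 of 4 WT arrays on high cholesterol, and on 3 of 4 KO and 2 of 4 WT arrays on chow. Its KO minus WT log2 difference was -0.05 ± 0.19 on high cholesterol (limma adjusted p = 0.969) and 0.38 ± 0.19 on chow (adjusted p = 0.329), so the Met signal could not check the genotype labels. Background was wider on one diet: the lowest signal called detected was 17.7 to 24.8 on high cholesterol arrays and 9.74 to 11.5 on chow arrays. Over the probes detected on no array, the SD of the signal was 6.54 to 8.08 on high cholesterol arrays and 4.47 to 5.51 on chow arrays. The part of this background in the results of dim probes such as that of Abcg1 was not tested. No slide or run is named, so any difference between array sets that coincides with the diet cannot be told apart from it. This holds for the diet differences of bright probes as well.

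Abcg5 and Abcg8 rose on the high cholesterol diet in both genotypes, and in each case the arrays of the diets did not overlap. As background, 15.2% of the 9265 tested genes passed as higher in KO and 13.7% in WT, at an adjusted p under 0.05, and the arrays lay apart in that direction for 16% of genes in KO and 13% in WT. Both members were detected on 16 of 16 arrays. The normalized linear signal of Abcg5 was 7403, 5333, 8814 and 7072 in KO livers on high cholesterol, against 2464, 2983, 3413 and 3293 in KO livers on chow. In WT livers it was 7669, 7337, 7378 and 7741 on high cholesterol, against 2094, 2681, 3675 and 2464 on chow. The lowest Abcg5 signal on high cholesterol, KO replicate 2, was still above the highest on chow, WT replicate 3. Abcg8 had signals of 6092, 6603.5, 6302 and 6961 in KO livers on high cholesterol, against 2260, 2779, 3652 and 3550 in KO livers on chow. In WT livers Abcg8 had 6180, 7253, 4788 and 5778 on high cholesterol, against 1143, 2470, 3008 and 2041 on chow. WT replicate 1 on chow had the lowest Abcg8 signal of all arrays.

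**Figure D1:**
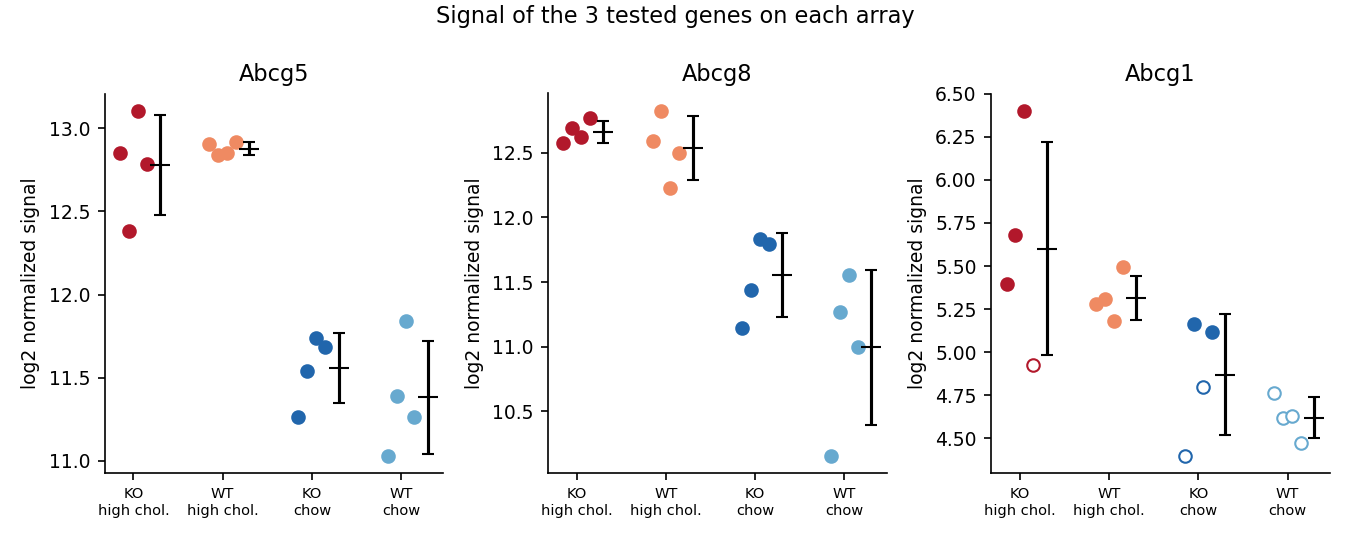
Normalized signal of the probes of Abcg5, Abcg8 and Abcg1 on each of the 16 arrays, by group; points are single arrays (filled where detected), and the bars beside them are the mean ± SD of 4 arrays, on a log2 axis. For Abcg5 and Abcg8 every high cholesterol array lies above every chow array, while Abcg1 lies near the lower end of the scale with some arrays undetected (open points).

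On the log2 scale Abcg5 averaged 12.78 ± 0.30 in KO livers on high cholesterol and 11.56 ± 0.21 in KO livers on chow (SD, n = 4 each). It averaged 12.88 ± 0.04 in WT livers on high cholesterol and 11.38 ± 0.34 in WT livers on chow. The diet difference was 1.22 ± 0.18 in KO (SE; 2.34-fold; limma adjusted p = 9.55e-05) and 1.50 ± 0.18 in WT (2.82-fold; adjusted p = 1.89e-05). Abcg8 averaged 12.66 ± 0.08 in KO livers on high cholesterol and 11.55 ± 0.33 in KO livers on chow. It averaged 12.53 ± 0.25 in WT livers on high cholesterol and 10.99 ± 0.60 in WT livers on chow. Its diet difference was 1.11 ± 0.24 in KO (2.16-fold; limma adjusted p = 0.00232) and 1.54 ± 0.24 in WT (2.91-fold; adjusted p = 0.000198).

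By the size of the change, Abcg5 and Abcg8 stood further out than by the call. In KO, 181 genes had a larger log2 difference than Abcg5 and 267 a larger one than Abcg8. In WT, 88 genes had a larger one than Abcg5 and 81 a larger one than Abcg8. The offset of 16 in the background correction shrinks log2 differences of dim probes. The ranking therefore favours bright probes such as those of Abcg5 and Abcg8. The median over all genes was -0.03 in KO and -0.02 in WT. The balance of all calls moved with the scaling. In KO it was 1411 higher and 1148 lower, and with median scaling 1016 higher and 1347 lower.

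Abcg1 passed as higher on the high cholesterol diet in both genotypes, but its signal was near background and its call moved with single arrays. The deposited signal, before normalization, was 29.1, 34.6, 66.4 and 14.4 intensity units in KO livers on high cholesterol, of which the last was not detected. It was 33.1, 29.2, 30.3 and 36.3 in WT livers on high cholesterol, all detected. In KO livers on chow it was -3.90, 15.6, 7.37 and 13.6, with replicates 2 and 4 detected, and in WT livers on chow it was 9.15, 2.87, 4.35 and -0.959, none of them detected. The arrays of the diets did not overlap in WT, whereas in KO the undetected high cholesterol array lay within the range of the chow arrays.

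On the log2 scale Abcg1 averaged 5.60 ± 0.62 in KO livers on high cholesterol and 4.87 ± 0.35 in KO livers on chow (SD, n = 4 each). It averaged 5.32 ± 0.13 in WT livers on high cholesterol and 4.62 ± 0.12 in WT livers on chow. By the filter it entered the tests mainly through its high cholesterol arrays. The diet difference in KO was 0.73 ± 0.24 (SE; 1.66-fold; limma adjusted p = 0.0287). In WT, where no chow array detected the probe, Abcg1 was at least 1.32-fold higher, taking each chow array at no less than the lowest signal detected on it; the fitted difference was 0.69 ± 0.24 (limma adjusted p = 0.0386).
Leaving out KO replicate 3 on high cholesterol, the brightest Abcg1 array, brought the KO difference to 0.47 (limma adjusted p = 0.0911). Leaving out chow KO replicate 1 brought it to 0.58 (adjusted p = 0.0991), leaving out high cholesterol KO replicate 2 to 0.71 (adjusted p = 0.0598), and leaving out chow KO replicate 3 to 0.71 (adjusted p = 0.0646). In WT the limma call was lost when any 1 of the 8 WT arrays was left out, with differences of 0.63 to 0.73 and adjusted p of 0.0519 to 0.0894.

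Some macrophage markers moved with the diet as well. Of 14 tested macrophage markers 7 passed as higher and 0 as lower in each genotype, with medians of 0.81 in KO and 0.93 in WT. Of the 7 calls in each genotype 3 were lysozyme symbols that are not independent. Lyzs is an older symbol of Lyz2, and Lyz one of its near-identical neighbour Lyz1. The 2 probes labelled Lyz1 were detected on 0 of 16 arrays and the Lyz probe on 16. Which gene the Lyz probe reports was therefore not settled. Without these 3 lysozyme symbols, 4 of 11 passed as higher and 0 as lower in each genotype, with medians of 0.81 in KO and 0.73 in WT. Of all genes 15.2% passed as higher in KO and 13.7% in WT. Gpnmb, among the 4 in each genotype, was detected on 0 of 4 chow arrays in each. It thus met the filter through the high cholesterol arrays alone. Ctss, also among the 4 in each, was detected on 2 of 4 KO and 1 of 4 WT arrays on chow. Emr1, the macrophage surface protein F4/80, was chosen after its values were seen and was detected on 16 of 16 arrays. It rose by 1.20 ± 0.31 in KO (limma adjusted p = 0.00889) and by 1.02 ± 0.31 in WT (adjusted p = 0.0233). Among the other non-lysozyme markers detected on 16 of 16 arrays, Clec4f, C1qa, C1qb, C1qc and Cd14 passed in neither genotype. Clec4f differed by 0.15 ± 0.25 in KO and 0.08 ± 0.25 in WT, and C1qb by 0.39 ± 0.28 and -0.01 ± 0.28. Csf1r passed as higher in KO only, and Cd68 in WT only. The summed linear signal of the 14 was 5569 to 12805 in KO livers on high cholesterol and 3905 to 4514 in KO livers on chow. It was 6979 to 9766 in WT livers on high cholesterol and 3675 to 4474 in WT livers on chow. Without the lysozymes the sums overlapped in KO, at 2161 to 5824 on high cholesterol and 1844 to 2367 on chow, and did not overlap in WT, at 2566 to 4068 on high cholesterol and 1808 to 2143 on chow.
In replicates 1 to 4 of the KO livers on high cholesterol, the sums of the 14 were 5569, 7854, 12805 and 5675. The normalized linear signals of Abcg1 on these arrays were 42.0, 51.2, 84.5 and 30.5. In the WT livers on that diet the sums were 8880, 6979, 9766 and 7459, beside normalized Abcg1 signals of 38.9, 39.6, 36.3 and 45.0. In KO the highest sum and the highest Abcg1 signal came from the same array, replicate 3. In WT the highest sum came from replicate 3 and the highest Abcg1 signal from replicate 4. These sums include the 3 lysozyme symbols. Of the 14 markers Lyz was the brightest on this diet, at a mean log2 of 11.8 in KO and 12.0 in WT. Sums without the lysozymes were not set beside Abcg1 array by array. The part of the macrophage markers in the Abcg1 result was not tested, and in whole liver more cells of a type and more RNA per cell cannot be told apart.

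Abca1 and Mylip gave no level that could be compared. The Abca1 probe was detected on 0 of 16 arrays, and its lowest detection p-value was 0.0664. Its deposited signal was -5.13 to 10.2 in KO and -4.13 to 4.19 in WT livers on high cholesterol, and -4.81 to 8.88 in KO and -7.91 to 1.66 in WT livers on chow. One Mylip probe (ILMN_2590339) was detected on 0 of 16 arrays, with signals of -8.91 to -3.23 in KO and -11.6 to -1.71 in WT livers on high cholesterol, and -4.97 to 0.923 in KO and -2.45 to 5.94 in WT livers on chow. The other (ILMN_2735102) was detected on 1 of 16, chow WT replicate 4, at 11.1 units and a detection p-value of 0.0476. Its signals were -11.6 to -7.00 in KO and -11.2 to -1.59 in WT livers on high cholesterol, and -3.02 to 7.28 in KO and -0.422 to 11.1 in WT livers on chow. These values lie below or around the background of their arrays, so the detection filter left both genes out. Without that filter neither passed in any comparison. The smallest adjusted p were those of Mylip between the diets, at -0.21 ± 0.10 in KO (limma adjusted p = 0.157) and -0.23 ± 0.10 in WT (adjusted p = 0.132), and these sizes are set by the background.

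**Figure D2:**
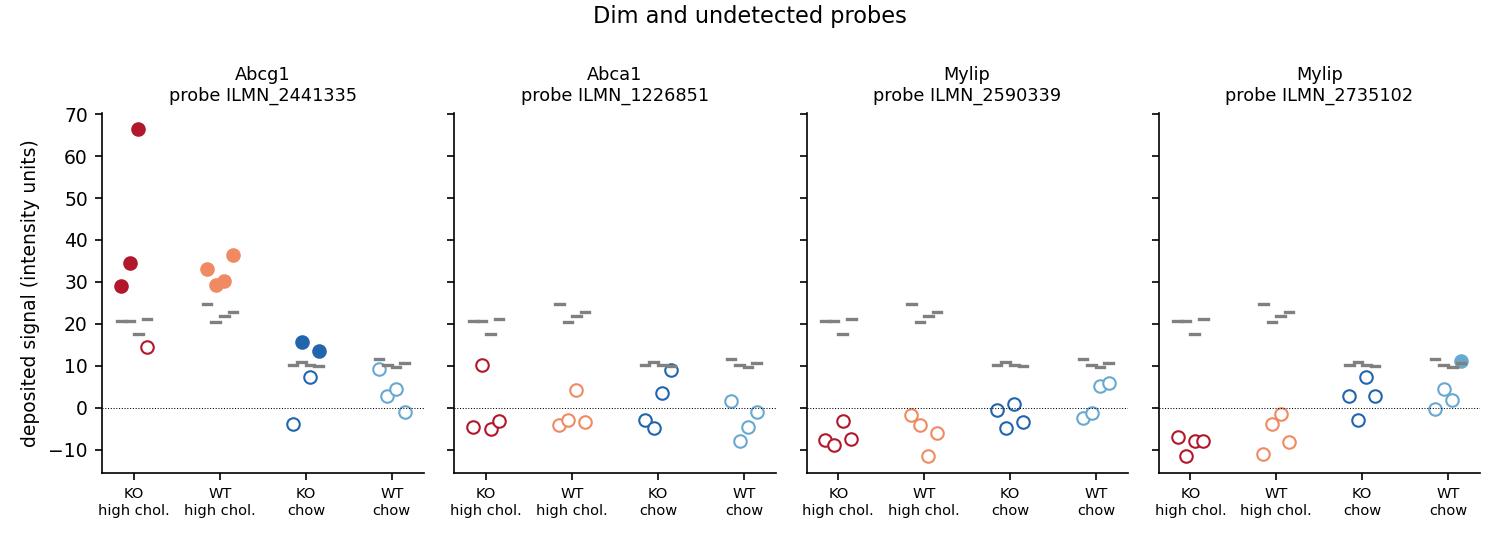
Deposited signal (intensity units, background-subtracted, not normalized) of the probes of Abcg1, Abca1 and Mylip on each array; filled points were detected and the grey dash is the lowest detected signal on that array. Abca1 was detected on no array and the Mylip probes on 1 array in all, while Abcg1 was detected on 7 of 8 high cholesterol and 2 of 8 chow arrays.

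The loss of c-Met was compared within each diet, and none of the 3 tested members passed. Across all genes 0.162% passed on high cholesterol and 0% on chow by limma (1470 genes had an unadjusted p under 0.05 on chow). On high cholesterol the KO minus WT log2 difference of Abcg5 was -0.10 ± 0.18 (95% interval -0.47 to 0.27; limma adjusted p = 0.908). Abcg8 differed by 0.13 ± 0.24 (-0.37 to 0.62; limma adjusted p = 0.910). Abcg1 differed by 0.28 ± 0.24 (-0.21 to 0.78; limma adjusted p = 0.748). These intervals leave room for differences of either sign. The Abcg1 difference was 0.02 without KO replicate 3 and 0.51 without KO replicate 4. Without KO replicate 2, which had the lowest Abcg5 signal on that diet, the Abcg5 difference was 0.04.

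On chow the KO minus WT difference of Abcg8 was 0.56 ± 0.24 (1.47-fold; 95% interval 0.06 to 1.05), which did not pass after adjustment over all genes (limma adjusted p = 0.262; unadjusted p = 0.0298). The signals overlapped, since the lowest KO array, at 2260, lay below the WT arrays at 2470 and 3008. Without chow WT replicate 1, the lowest Abcg8 array, the difference was 0.28 (limma adjusted p = 0.614). Abcg5 differed by 0.18 ± 0.18 (-0.20 to 0.55; limma adjusted p = 0.658) and did not pass. Abcg1 did not pass either (limma adjusted p = 0.636), and since its probe was detected on 2 of 4 KO and 0 of 4 WT arrays on chow, no size is given. With median scaling the Abcg5 difference on chow was -0.01.

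The interaction asked whether the diet difference itself differed between genotypes. It was -0.27 ± 0.25 for Abcg5 (95% interval -0.80 to 0.25; limma adjusted p = 0.724) and -0.43 ± 0.33 for Abcg8 (-1.13 to 0.27; adjusted p = 0.664). For Abcg1 the fitted value was 0.04 ± 0.33 (adjusted p = 0.979), which rests on chow arrays mostly not above background. Of all genes 0.0108% passed. The smaller diet differences of Abcg5 and Abcg8 in KO were thus within the error, and the intervals do not show that the genotypes responded alike. The sign for Abcg1 turned under several settings, including -0.23 without high cholesterol KO replicate 3. Without chow WT replicate 1 the Abcg8 interaction was -0.15.

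**Figure D3:**
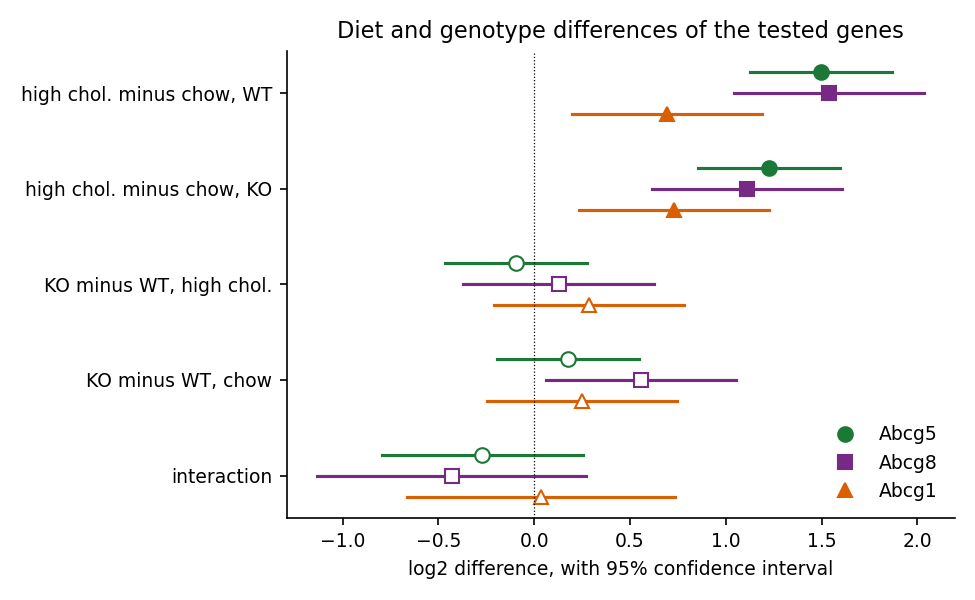
Log2 differences of Abcg5, Abcg8 and Abcg1 in the 5 comparisons, with 95% intervals from the limma model; filled points passed an adjusted p of 0.05. All diet differences lie above 0, and none of the genotype differences or interactions passed.

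Since the proteins pair, the balance of the Abcg5 and Abcg8 signals was compared within each array, which removes any factor common to both probes of an array. This is a difference of 2 probes and not a ratio of transcripts. Abcg5 minus Abcg8 on the log2 scale averaged 0.12 ± 0.34 in KO and 0.34 ± 0.25 in WT livers on high cholesterol, and 0.01 ± 0.13 in KO and 0.39 ± 0.33 in WT livers on chow (SD, n = 4 each). High cholesterol minus chow, this balance differed by 0.11 in KO (exact permutation p = 0.6; adjusted over the 4 comparisons, 0.8) and by -0.04 in WT (exact permutation p = 0.886; adjusted 0.886). KO minus WT, it differed by -0.22 on high cholesterol (exact permutation p = 0.371; adjusted 0.743) and by -0.38 on chow (exact permutation p = 0.0571; adjusted 0.229). Without chow WT replicate 1, where the balance was 0.87, the difference on chow was -0.22, and the diet difference in WT turned to 0.12. Leaving out single arrays moved the other differences as well, to between -0.01 and 0.26 for the diet in KO and between -0.34 and -0.08 for KO minus WT on high cholesterol. All tests were two-sided. With 4 arrays per group the smallest possible p is 0.0286, and a single comparison at that value would have an adjusted p of 0.114, so these tests could hardly pass.

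Abcg5 and Abcg8 were also compared across arrays after each group mean was subtracted, so that differences between groups did not enter. Over the 16 arrays Pearson's r was 0.655 (permutation p = 0.0263; adjusted over the 3 pairs of tested members, 0.0789) and Spearman's rho was 0.453 (permutation p = 0.115; adjusted 0.344). Without the 2 arrays farthest from the median of Abcg5, r was 0.678. Abcg5 and Abcg1 had r of 0.311 (adjusted permutation p = 0.576) and rho of 0.235 (adjusted 0.683), and r of 0.471 without the 2 farthest arrays. Abcg8 and Abcg1 had r of 0.0224 (adjusted permutation p = 0.899) and rho of -0.00588 (adjusted 0.986), and r of 0.154 without the 2 farthest. No pair passed after adjustment.

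Within each diet, a split chosen after seeing the data, the relation of Abcg5 to Abcg8 looked unlike. On the 8 high cholesterol arrays r was -0.132 (exact permutation p = 0.602; adjusted over both diets, 0.602) and rho was -0.429 (exact p = 0.278; adjusted 0.278), with r of -0.184 without the 2 farthest arrays. On the 8 chow arrays r was 0.917 (exact permutation p = 0.00868; adjusted 0.0174) and rho was 0.952 (exact p = 0.00521; adjusted 0.0104), with r of 0.889 without WT replicates 1 and 3. The chow value depended on the scaling. It was 0.887 with cyclic loess (adjusted exact permutation p = 0.0312), and with median scaling it was 0.697 (adjusted exact permutation p = 0.219) and 0.312 without the 2 farthest arrays. Among 9264 other genes, 28 correlated more strongly with Abcg5 than Abcg8 did on chow arrays, against 5620 on high cholesterol arrays. On high cholesterol Abcg5 varied little in WT (SD 0.04) and Abcg8 varied little in KO (SD 0.08). On chow the SDs of both genes were 0.21 to 0.60. The r on high cholesterol arrays therefore says little about whether the genes move together there. The p-values within diets do not allow for the choice of this split. The difference between the diets was not tested.

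**Figure D4:**
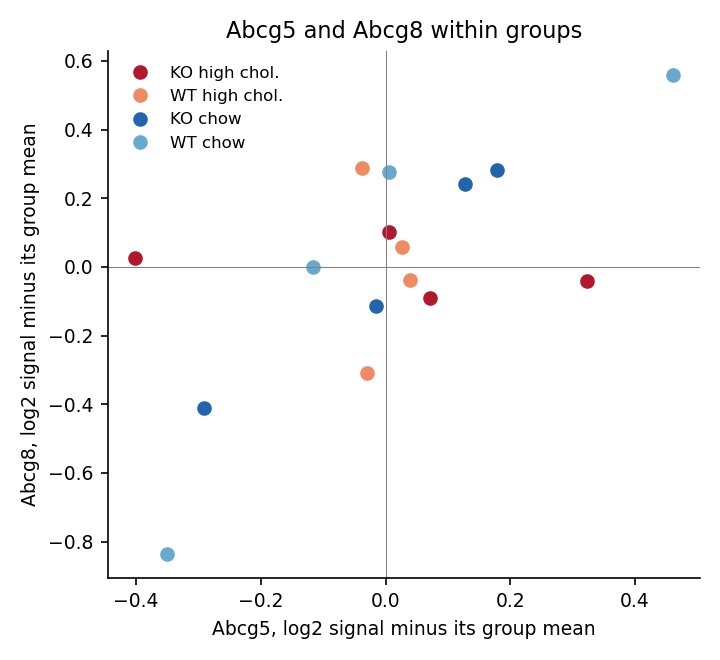
Log2 signal of Abcg8 (vertical axis) against that of Abcg5 (horizontal axis), each array as its deviation from the mean of its group, coloured by group. Chow arrays lie along a rising line (r = 0.917, n = 8), and high cholesterol arrays do not (r = -0.132, n = 8). On high cholesterol Abcg5 varied little in WT and Abcg8 varied little in KO, which limits what r can show there.

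The genes whose pattern was most like each member were named by Pearson's r over the 16 group-centred arrays, as a description across 9264 genes that share arrays and scaling. For Abcg5 they were Cdc2l1 (r = 0.895), LOC100045019 (0.881), Syncrip (0.843) and Ormdl3 (0.803), and Abcg8 ranked at 45. For Abcg8 they were Scarb1 (0.905), LOC100046393 (0.822), Yif1b (0.811) and Uimc1 (0.806), and Abcg5 ranked at 83. Scarb1 encodes the HDL receptor that takes up cholesteryl ester into hepatocytes. For Abcg1 they were Adcy4 (0.882), Igfbp1 (0.876), Fpr2 (0.859) and Kctd12 (0.857). The Abcg1 probe was near background and detected on 9 of 16 arrays. Its group-centred values ran from -0.67 in high cholesterol KO replicate 4, undetected, to 0.80 in replicate 3 of that group. The Abcg8 value farthest from its group mean was -0.84, in chow WT replicate 1. The r of the named genes were not recomputed without such arrays. Between the diets 0 of these 12 genes passed as higher and 3 passed as lower, each in 1 genotype. LOC100046393 fell by 0.50 in KO (limma adjusted p = 0.0338), Ormdl3 fell by 0.43 in WT (adjusted p = 0.0392) and Adcy4 fell by 0.84 in WT (adjusted p = 0.0115). Scarb1 in WT stood at 0.49 ± 0.18 (limma adjusted p = 0.0505).

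Of 8 tested LXR receptors and partners, through which sterols act on the members, 1 rose and 0 fell in KO, and 1 rose and 1 fell in WT. Of all genes 12.4% passed as lower in KO and 11.8% in WT, beside 15.2% and 13.7% as higher. The median log2 difference of the list between the diets was -0.05 in KO and -0.08 in WT, against -0.03 and -0.02 over all genes. Nr1h3, which encodes LXRα, fell by 0.60 ± 0.15 in WT (limma adjusted p = 0.00616) and differed by -0.34 ± 0.15 in KO (adjusted p = 0.0935). Nr1h2, for LXRβ, differed by 0.00 ± 0.13 in KO (limma adjusted p = 0.987, negative before rounding) and 0.01 ± 0.13 in WT (adjusted p = 0.980). Rxra, the RXR partner, differed by -0.10 ± 0.21 in KO (limma adjusted p = 0.757) and -0.17 ± 0.21 in WT (adjusted p = 0.577). The coactivator Ncoa3 rose by 1.94 ± 0.23 in KO (limma adjusted p = 1.69e-05) and 1.12 ± 0.23 in WT (adjusted p = 0.00205). On chow its probe was detected on 2 of 4 KO and 3 of 4 WT arrays, so these sizes depend in part on the background level.

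Among 6 tested genes that make or clear oxysterols and their precursors, 1 rose and 3 fell in KO, and 0 rose and 3 fell in WT. The medians were -0.27 in KO and -0.35 in WT. Cyp7b1, the oxysterol 7α-hydroxylase, fell by 1.90 ± 0.30 in KO (limma adjusted p = 0.000244) and fell by 2.05 ± 0.30 in WT (adjusted p = 0.000162). Cyp27a1, the sterol 27-hydroxylase, fell by 0.70 ± 0.16 in KO (limma adjusted p = 0.00451) and fell by 0.60 ± 0.16 in WT (adjusted p = 0.0126). Hsd3b7, a later enzyme of bile acid synthesis, fell by 0.94 ± 0.18 in KO and fell by 0.92 ± 0.18 in WT. The enzymes Ch25h and Sult2b1 did not meet the detection filter.

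Other LXR targets did not move as one group. Of 7 genes of fatty acid and phospholipid synthesis, 3 rose and 1 fell in KO, and 2 rose and 1 fell in WT, with medians of 0.03 and 0.07. Scd1, the stearoyl-CoA desaturase, rose by 1.06 ± 0.15 in KO (limma adjusted p = 6.72e-05) and by 0.99 ± 0.15 in WT (adjusted p = 0.000159). Fasn, the fatty acid synthase, was detected on 0 of 4 chow KO arrays and was at least 1.46-fold higher on high cholesterol in KO (limma adjusted p = 0.0355). Elovl5, a fatty acid elongase, fell by 0.74 ± 0.24 in KO (limma adjusted p = 0.0333) and fell by 0.84 ± 0.24 in WT (adjusted p = 0.0186). Srebf1, whose SREBP-1c product drives fatty acid synthesis, differed by 0.03 ± 0.39 in KO (limma adjusted p = 0.960) and -0.44 ± 0.39 in WT (adjusted p = 0.425).

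Of 11 tested LXR targets of lipoproteins and macrophages, 2 rose and 1 fell in KO, and 2 rose and 2 fell in WT, with medians of 0.09 and 0.16. Lpl, the lipoprotein lipase, rose by 1.34 ± 0.38 in KO (limma adjusted p = 0.0144) and by 2.11 ± 0.38 in WT (adjusted p = 0.000716). Smpdl3a, a secreted phosphodiesterase of macrophages, rose by 0.90 ± 0.16 in KO (limma adjusted p = 0.000651) and by 0.53 ± 0.16 in WT (adjusted p = 0.0248). Cyp7a1, the first enzyme of bile acid synthesis and an LXR target in rodents, passed as lower in KO (limma adjusted p = 4.63e-06) and in WT (adjusted p = 1.89e-05). On high cholesterol its probe was detected on 1 of 4 arrays in each genotype, against 4 of 4 on chow, so the fitted differences of -5.93 ± 0.61 in KO and -5.22 ± 0.61 in WT depend on the background level. Nr1h3, also on this list, is the other gene that fell in WT.

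Of 12 tested partners of sterol efflux and bile secretion, 3 rose and 2 fell in KO, and 4 rose and 1 fell in WT. Their medians were 0.18 in KO and 0.40 in WT. Soat2, which esterifies cholesterol in hepatocytes, rose by 0.94 ± 0.22 in KO (limma adjusted p = 0.00438) and by 1.42 ± 0.22 in WT (adjusted p = 0.00021). Npc2, a sterol carrier of the lysosome, rose by 1.19 ± 0.17 in KO and by 1.09 ± 0.17 in WT. Abcb11, the bile salt export pump, rose by 0.72 ± 0.21 in KO (limma adjusted p = 0.0192) and by 1.00 ± 0.21 in WT (adjusted p = 0.00278). Abcb4, which moves phosphatidylcholine into bile, rose by 1.07 ± 0.20 in WT (limma adjusted p = 0.00107) and differed by 0.11 ± 0.20 in KO (adjusted p = 0.708); the interaction did not pass (-0.96; adjusted p = 0.357). Stard4, a sterol carrier of the cytosol, fell by 1.84 ± 0.20 in KO and fell by 1.78 ± 0.20 in WT, and the HDL protein Apoa2 fell by 0.36 ± 0.12 in KO (limma adjusted p = 0.0343).

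Mylip itself was not measurable, and of 5 tested genes of its receptors and their regulators 0 rose and 3 fell in KO, and 0 rose and 2 fell in WT. Srebf2, whose SREBP-2 product is the sterol-regulated activator of cholesterol synthesis, fell by 1.08 ± 0.20 in KO (limma adjusted p = 0.000692) and fell by 0.93 ± 0.20 in WT (adjusted p = 0.00252).

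Of 18 other ABCA and ABCG transporters on the array, 8 were tested, and 1 rose and 0 fell in each genotype. The median was 0.28 in KO and 0.00 in WT. The gene that rose was Abca8b, by 0.66 ± 0.16 in KO (limma adjusted p = 0.00479) and by 0.76 ± 0.16 in WT (adjusted p = 0.00209). In the comparisons of genotypes and in the interaction, 0 genes of these 7 pathway lists passed.

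**Figure D5:**
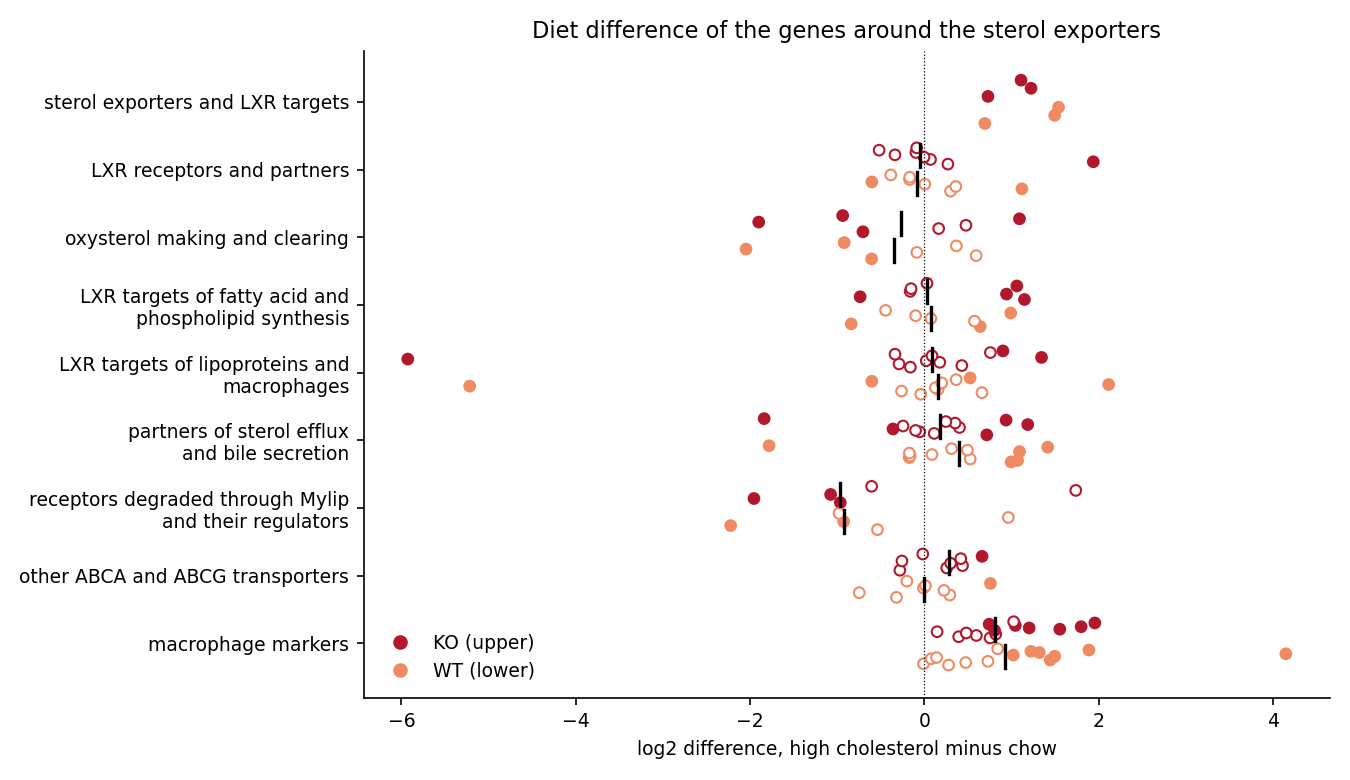
Log2 difference, high cholesterol minus chow, of each tested gene of the members and the pathway lists, with KO in the upper and WT in the lower line of each list; filled points passed and black bars are list medians. The top list shows the 3 tested members of 5, and the macrophage markers stand at the bottom. The partners of sterol efflux and bile secretion have medians of 0.18 in KO and 0.40 in WT.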

How the data were processed

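RNA was labelled as biotinylated cRNA and read with GenomeStudio 2009.1, per the submitters' processing notes and the labels. The deposited table holds intensity values, background-subtracted and not normalized, each with a detection p-value. A second deposited table holds the authors' quantile-normalized intensity values, used only as an alternative. No batch, slide or scan label is given in the sources used here.

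Signals were corrected with limma 3.58.1 (R 4.3.3) by normexp, its background estimated through the detection p-values (offset 16), quantile-normalized and put on the log2 scale. The filter asked for a detection p-value under 0.05 on 4 or more arrays, which 12248 of 25697 probes met, and the brightest kept probe stood for each of 9265 genes. A model with 4 group means was fitted with lmFit and eBayes to all 16 arrays. Tests were limma's, two-sided, adjusted by Benjamini-Hochberg across the 9265 genes within each comparison, with a threshold of 0.05. Correlations used 100000 permutations within groups over 16 arrays, and within a diet all 576 orders. The members, lists, tests and the rule for named genes were chosen with earlier results of these data known. That rule names the members, up to 4 passing genes per list with the smallest adjusted p, Nr1h3, Nr1h2, Rxra, Srebf1 and Soat2, and the 4 genes most like each tested member. Some genes under that rule are not reported here. Of 124 list symbols on the array, 120 were in the RefSeq gene table.

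On simulated data for the diet comparison in WT (9265 genes), 16 of 67 genes changed by a log2 of 0.5 were recovered, 54 of 67 changed by 1 and 64 of 66 changed by 1.5, with 8 false calls. Only these genes were changed, and the noise was normal and independent between genes. In the real comparison 25.4% of genes passed, so these recovery rates need not hold for it. Replicate numbers were not taken as pairs, since the labels tie them to nothing shared and in no comparison was every same-numbered correlation over 0.1. These ran from -0.112 to 0.114 in the diet comparison in WT, while between genotypes on high cholesterol all 4 were above 0, at 0.0987 to 0.274. Alternatives were other background, scaling and filter settings, probe summaries, variance models, a replicate block and each array left out. Figures were drawn with matplotlib 3.10.9.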

Additional observations from a re-analysis of the deposited data

Results flagged for a closer look

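In 28 sets of 4 arrays (each member probe or balance in each group), 2 arrays stood apart from the other 3 by a gap, relative to the group's range, over Dixon's critical value, which chance gives in about 1 of 20 sets. Both were for the Abca1 probe, which was detected on no array. High cholesterol KO replicate 2 had a log2 signal of 4.79, with the others at 4.43 to 4.47. High cholesterol WT replicate 3 had 4.59, with the others at 4.46 to 4.48.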

How the results depend on the processing

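The diet calls of Abcg5 and Abcg8 kept their direction and passed under all 28 alternatives in both genotypes. Abcg5 differed by 0.99 to 1.36 in KO and 1.13 to 1.65 in WT, and Abcg8 by 0.87 to 1.20 in KO and 1.21 to 1.73 in WT. No genotype difference or interaction of a member passed under any alternative. The diet call of Abcg1 was lost in KO with the authors' normalized values (1.97, limma adjusted p = 0.109) and with only the groups compared (0.73, adjusted p = 0.0795). In WT it was lost without the detection filter (0.69, limma adjusted p = 0.0666), which tests 18138 genes. With the authors' values the WT diet difference of Abcg1 was 2.73 (limma adjusted p = 0.0355), and KO minus WT on chow did not pass (adjusted p = 0.554). Authors' values under 1 were set to 1 before the log2 was taken. For Abcg1 this applied to chow KO replicate 1 and chow WT replicate 4, so its sizes with the authors' values depend on that floor. With 1 array left out, the Abcg1 diet difference was 0.47 to 0.96 in KO and 0.63 to 0.73 in WT. In KO minus WT on high cholesterol it was 0.02 to 0.51. The Abcg1 interaction turned to -0.0110 with cyclic loess, -0.0726 with median scaling, -0.76 with the authors' values and -0.12 with array weights, and ran from -0.23 to 0.26 with 1 array left out. Abcg5 in KO minus WT turned to -0.0125 on chow with median scaling, and on high cholesterol ran from -0.20 to 0.0359 with 1 array left out. The correlation of Abcg5 and Abcg8 was -0.132 on high cholesterol arrays and 0.917 on chow arrays, and that of Abcg8 and Abcg1 was -0.0149 with median scaling. The causes were not tested. Median scaling moved the median of all genes to -0.14 on high cholesterol and -0.12 on chow in KO minus WT, and to -0.11 in KO and -0.09 in WT between the diets. It gave 5 higher and 21 lower genes in KO minus WT on high cholesterol, against 5 and 10. The replicate block changed no member's call (Abcg1 diet difference in WT, adjusted p = 0.0464), and the same-numbered arrays are not known to be pairs. Counts of genes passing in KO minus WT on chow were 0, and 351 with array weights, 74 with only the groups compared and 0 to 8 otherwise. On high cholesterol they were 15, and 26 with median scaling, 0 with only the groups compared and 5 to 25 with 1 array left out. For the interaction they were 1, and 0 to 9 otherwise. The stricter filter removed Abcg1, and no slide block could be fitted, since no slide is named in the files. The signal over background limits Abcg1, Abca1 and Mylip.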

Other observations

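Markers of cell types other than macrophages were counted in the same way. Of all genes 15.2% passed as higher and 12.4% as lower in KO, and 13.7% and 11.8% in WT. A count of 1 of 7 is near these shares. Of 7 stellate cell markers 0 rose and 1 fell in KO, and 5 rose and 0 fell in WT, with median log2 differences of -0.09 and 0.69. Col1a1, a fibrillar collagen, differed by 0.27 ± 0.21 in KO (limma adjusted p = 0.341) and rose by 1.30 ± 0.21 in WT (adjusted p = 0.000307). On chow it was detected on 1 of 4 arrays in each genotype, so these sizes depend on the background level. Col3a1, also among the 5 that rose in WT, was detected on 0 of 4 chow WT arrays. Dcn, the proteoglycan decorin, differed by 0.20 ± 0.16 in KO (limma adjusted p = 0.376) and rose by 0.69 ± 0.16 in WT (adjusted p = 0.00469). In the interaction 0 of the 7 passed. Of 4 tested bile duct cell markers 3 rose in KO and 1 in WT, and 0 fell. Krt7, among the 3 in KO, was detected on 0 of 4 chow arrays in each genotype. It thus met the filter through the high cholesterol arrays alone. Spp1, osteopontin, rose by 1.26 ± 0.45 in KO (limma adjusted p = 0.0457) and by 3.13 ± 0.45 in WT (adjusted p = 0.000121). Of 9 hepatocyte markers 2 rose in KO and 1 in WT, and 0 fell. Of 7 sinusoidal endothelial markers 0 rose and 1 fell in KO, and 1 rose and 1 fell in WT. The single enterocyte marker tested, Apoa4, which liver also expresses, passed in neither.

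Gpnmb, a glycoprotein on the macrophage list, was the 1 marker gene that passed between genotypes, with a KO minus WT log2 difference of -2.30 ± 0.41 on high cholesterol (limma adjusted p = 0.0234). It was detected on 4 of 4 high cholesterol and 0 of 4 chow arrays in each genotype. Its log2 SD was 0.55 in KO and 1.23 in WT on high cholesterol, against 0.09 and 0.05 on chow. The SE of the model thus draws in part on chow arrays that did not detect Gpnmb. With only the groups compared, 0 genes passed in KO minus WT on high cholesterol, so the Gpnmb call was lost there.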
